A study of Mus musculus with 24 samples.

Results

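Neuro2A cells carrying RfxCas13d with a crRNA that has no target were compared with untransfected Neuro2A cells, to describe how the control arm of this RNA-targeting effector differs from cells that carried no effector. Neuro2A is a mouse neuroblastoma cell line, labelled wild-type, and RfxCas13d is a Cas13 nuclease that a CRISPR RNA (crRNA) directs to a complementary transcript. The members of the comparison were chosen by their group alone and are 6 of the 24 samples of the series, 3 per group. The RfxCas13d control group, called RfxCas13d_NTG here (NTG, non-targeted), received by lipid transfection a plasmid that carries RfxCas13d under the CAG promoter and its crRNA under the U6 promoter, and RNA was taken 48 hr later. The untransfected group is labelled only as an untransfected negative control. The transfection reagent, the plasmid DNA, the effector and the crRNA therefore cannot be told apart as the source of a difference between the groups. The columns of the deposited table name the control arm EV where the labels name it NTG, so which control crRNA or vector it carried is in doubt. The same table holds control arms of HiFi-RfxCas13d, a variant of RfxCas13d made for less cleavage of bystander RNA, and of DiCas7-11, an effector of another CRISPR family. These arms, 3 samples each and likewise labelled NTG, are used below where RfxCas13d_NTG was set against another transfected control.

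Foreign nucleic acid inside a cell is read by sensors such as RIG-I, MDA5 and the toll-like receptors, which switch on the genes of type I interferons. Secreted interferon binds its receptor, and a complex of transcription factors that holds STAT2 and IRF9 then enters the nucleus and binds the interferon-stimulated response element in the promoters of interferon-stimulated genes. Their products degrade or sequester viral RNA, block translation, tag proteins with ISG15 and load peptides on MHC class I. Many of these genes are nearly silent in unstimulated cells.

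Read totals were between 14511442 and 18505568 expected counts in the RfxCas13d_NTG samples and between 12665725 and 16813658 in the untransfected samples. Levels are given below as CPM (counts scaled to a common library size), and differences as fitted log2 fold changes of RfxCas13d_NTG over untransfected, with their standard errors (SE). A gene is called higher or lower where the adjusted p of edgeR's quasi-likelihood test was under 0.05. Pairs of replicates of these groups differed by 1.75 to 2.54 times counting noise in chi-square per gene. Summed levels of 10 neuroblast markers were 2270 to 2290 CPM in RfxCas13d_NTG and 2340 to 2380 CPM in untransfected cells. Nefl was near 0 among them (means of 0.0946 and 0.0212 CPM), and the other 9 passed the filter on low counts. Summed markers of fibroblasts, macrophages, astrocytes, oligodendrocytes, epithelium and endothelium were at most 18.8 CPM in any of the 6 samples. In bulk RNA, fewer cells with a transcript and less of it per cell cannot be told apart.

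Ataxin-2, the transcript that other arms of the series target, did not differ detectably between the groups. Atxn2 (Entrez 20239) stood at 120, 122 and 125 CPM in RfxCas13d_NTG replicates 1 to 3 and at 123, 125 and 121 CPM in the untransfected replicates. The groups overlapped, and the log2 fold change was -0.01 (SE 0.037, edgeR adjusted p = 0.878). An exact two-sided permutation test on the 6 CPM values gave p = 0.8, where 0.1 is the smallest it can give with 3 against 3.

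Across the transcriptome, many genes differed by a little and few by a lot. Of 13901 genes tested among 39253 listed, edgeR called 778 higher (5.6% of genes tested) and 787 lower (5.66%). The median size of a called change was 0.197 on the log2 scale, and 670 of the higher and 708 of the lower genes changed by less than 0.5. Larger changes were mostly rises: 61 genes (0.439%) were called higher by more than 1 on the log2 scale, 36 of them by more than 2, and 22 genes (0.158%) were called lower by more than 1. The levels of the groups did not overlap for 28.5% of all genes tested, and the median log2 fold change of all genes was -0.0046. Of the 61 largest rises, 30 were on a list of 66 interferon-stimulated genes.

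**Figure D1:**
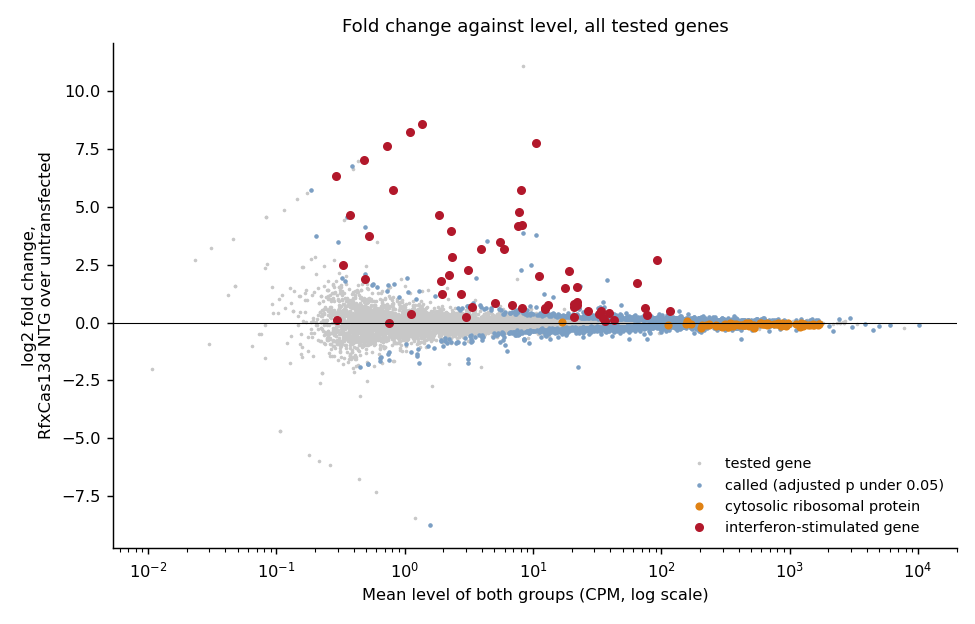
Log2 fold change of RfxCas13d_NTG over untransfected cells (y axis) against mean level in CPM on a log axis (x axis) for the genes tested, with interferon-stimulated genes, cytosolic ribosomal protein genes and other called genes in their own colours. Many of the largest called rises are interferon-stimulated genes with low untransfected levels, and Acta2, at -1.94, is the lowest of the genes above 10 CPM.

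Interferon-stimulated genes rose in RfxCas13d_NTG as a group. Of the 66 listed, 58 were tested and 48 were called higher (82.8%, beside 5.6% of all genes tested), with none called lower. The median log2 fold change over the 58 tested genes was 1.52, beside -0.0046 over all genes. Some of these genes passed the filter on low counts only through transfected samples. Of the 38 that passed it in every untransfected sample, 32 were called higher, with a median of 0.77. The same filter left 12507 genes of any kind, of which 743 (5.94%) were called higher. The other 8 listed genes (Ifit3b, Oas3, Zbp1, Gbp2, Sp100, Phf11d, Slfn2 and Ifi204) were too low to test. The 10 tested genes without a call were Irf1, Uba7, Ifit3, Slfn9, Stat2, Shisa5, Slfn8, Isg20, Slfn5 and Ifi203. The count of higher genes ranged from 41 to 53 over the alternative settings and from 47 to 49 when 1 replicate was left out.

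The response element that these genes are known for can be seen in their promoters. The 200 bases before the RefSeq start of 5 of the genes described next are printed because each holds its core, searched as GAAANNGAAA on both strands, which reads TTTCNNTTTC on the other. Sequences are from RefSeq, build GRCm38.p6, 5′ to 3′ along the strand of the gene. Capitals mark the matches, which overlap in Isg15, Oas1a and Bst2.
Isg15, chr4:156200819-156201018, minus strand: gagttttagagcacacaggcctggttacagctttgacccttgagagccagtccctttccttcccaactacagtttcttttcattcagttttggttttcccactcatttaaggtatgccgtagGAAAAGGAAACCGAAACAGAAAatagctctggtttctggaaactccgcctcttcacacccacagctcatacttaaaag
Ifit1, chr19:34640689-34640888, plus strand: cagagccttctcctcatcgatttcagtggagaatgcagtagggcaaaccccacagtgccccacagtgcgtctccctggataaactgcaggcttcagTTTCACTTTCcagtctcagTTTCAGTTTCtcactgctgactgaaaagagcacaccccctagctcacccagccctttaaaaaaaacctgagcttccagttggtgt
Rsad2, chr12:26456453-26456652, minus strand: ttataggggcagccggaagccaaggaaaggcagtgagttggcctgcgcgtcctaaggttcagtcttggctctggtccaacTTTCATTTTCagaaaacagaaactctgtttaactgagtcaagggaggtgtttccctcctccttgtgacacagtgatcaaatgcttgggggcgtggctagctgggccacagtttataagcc
Oas1a, chr5:120907526-120907725, minus strand: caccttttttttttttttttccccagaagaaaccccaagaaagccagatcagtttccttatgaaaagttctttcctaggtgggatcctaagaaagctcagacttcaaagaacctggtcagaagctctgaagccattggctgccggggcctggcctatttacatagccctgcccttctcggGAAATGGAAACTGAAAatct
Bst2, chr8:71537473-71537672, minus strand: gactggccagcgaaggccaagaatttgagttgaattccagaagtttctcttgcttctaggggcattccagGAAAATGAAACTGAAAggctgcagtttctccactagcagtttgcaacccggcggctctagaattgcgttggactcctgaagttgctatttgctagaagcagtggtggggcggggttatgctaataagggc
In Isg15 3 matches ran together from 78 to 57 bases before the start, and in Oas1a 2 ran from 20 to 5 bases before it. Ifit1 held 2 separate matches, whose first bases lie 104 and 85 bases before the start, Rsad2 held 1 that begins 120 bases before it, and Bst2 held 2 that begin 130 and 124 bases before it. Of all 32851 RefSeq windows of 300 bases (250 before to 50 after a start), 3.44% held the core. The same windows were matched to 44 of the 58 tested interferon-stimulated genes, and 22 of these held it (50%), beside 3.59% of the 10847 tested genes with a window. It was present for 15 of the 34 called genes with a window and for 7 of the 10 that were not called. A match is a run of letters and was not tested as a binding site.

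Ifit1 (Entrez 15957), which encodes a protein that binds foreign RNA caps and blocks its translation, had the largest rise among genes with a mean of at least 50 counts. It stood at 24.6, 18.2 and 20.6 CPM in the RfxCas13d_NTG replicates and at 0.0642, 0.120 and 0.0796 CPM in the untransfected replicates. These are 1027 counts against 4, a depth-scaled ratio of 235 with a 95% exact counting interval of 91.6 to 865, which covers counting error only. The groups lay far apart, with a log2 fold change of 7.77 (SE 0.268, edgeR adjusted p = 2.09e-18).

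Members of the oligoadenylate synthetase family, which make the second messenger that activates RNase L or resemble those that do, were among the largest rises. Oasl2 was at 17.7, 11.8 and 17.7 CPM against 0.321, 0.2996 and 0.239 CPM, a log2 fold change of 5.73 (SE 0.292, edgeR adjusted p = 1.24e-14). Oas1a was at 15.6, 12.5 and 16.8 CPM against 0.513, 0.719 and 0.319 CPM, a log2 fold change of 4.79 (SE 0.370). Reads of Oas1a may be split with near-identical copies such as Oas1g, so its own level is uncertain. Oasl1 was at 11.0, 10.0 and 11.1 CPM against 1.48, 0.959 and 1.03 CPM (3.20, SE 0.216). The naming rule required groups that do not overlap, so the separation of these genes was set by the choice. Oas2, named after its values were seen, had 110 counts over the RfxCas13d_NTG samples and none over the untransfected ones. The 95% exact counting interval of its depth-scaled ratio begins at 26.9.

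Genes of antiviral effectors at the membrane and in the cytosol rose as well. Rsad2 encodes viperin, an enzyme that makes a chain-terminating nucleotide. It was at 19.5, 13.2 and 13.6 CPM against 0.898, 0.779 and 0.796 CPM, a log2 fold change of 4.20 (SE 0.214, edgeR adjusted p = 1.24e-14). Isg15 (Entrez 100038882), the ubiquitin-like modifier, was at 16.3, 14.0 and 13.3 CPM against 0.770, 0.959 and 0.637 CPM, a log2 fold change of 4.16 (SE 0.177, edgeR adjusted p = 2.95e-16). Usp18, the protease that removes ISG15 and damps interferon receptor signalling, was at 11.2, 7.17 and 12.04 CPM against 0.962, 0.959 and 0.717 CPM (3.5, SE 0.309). Modifier and protease thus both lay well above the untransfected range. Ifitm3 and Apol9a rose too but are not on the list of 66. Ifitm3, which restricts virus entry at endosomes, was at 15.4, 14.0 and 17.2 CPM against 1.22, 0.659 and 1.43 CPM (3.85, SE 0.262). Apol9a, an apolipoprotein L family member that shares sequence with Apol9b, was at 21.7, 19.8 and 17.7 CPM against 1.67, 1.08 and 1.51 CPM (3.80, SE 0.192). Xaf1, a pro-apoptotic zinc finger protein, was at 7.47, 4.8 and 8.84 CPM against 0.321, 0.779 and 1.27 CPM (3.20, SE 0.371). In Usp18 and Xaf1, replicate 2 was the lowest of the RfxCas13d_NTG samples. The naming rule required no overlap between groups for each gene of this paragraph.

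The response was also plain in genes that untransfected cells already express. Ifi27 (Entrez 52668), a small mitochondrial and membrane protein, stood at 170, 147 and 161 CPM against 26.4, 23.6 and 23.9 CPM. Its rise was 6.46-fold, a log2 fold change of 2.69 (SE 0.125, edgeR adjusted p = 2.14e-15). Lgals9, the lectin galectin-9, is not on the list and was at 59.0, 53.7 and 62.2 CPM against 16.9, 16.5 and 16.0 CPM (1.82, SE 0.093, edgeR adjusted p = 1.24e-14). Bst2 encodes tetherin, which holds budding virions at the cell surface. Its levels were 33.1, 31.2 and 34.1 CPM against 11.0, 10.7 and 12.4 CPM (1.54, SE 0.110, edgeR adjusted p = 2.46e-11). In each of these genes the spread within a group was small beside the gap between groups.

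**Figure D2:**
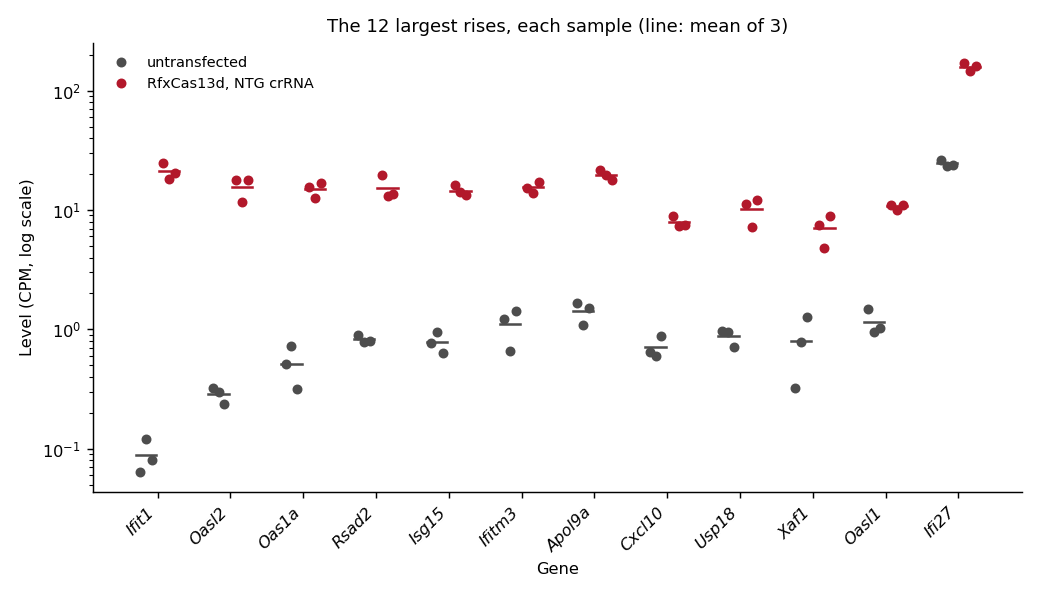
CPM on a log axis in each of the 3 RfxCas13d_NTG and 3 untransfected samples for the 12 largest rises by the naming rule. The rule admitted only genes whose groups do not overlap. The largest rise shown is that of Ifit1 (18.2 to 24.6 CPM against 0.120 or less) and the smallest that of Ifi27 (147 to 170 CPM against 26.4 or less).

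The genes described from here to the GTPases were named after their values were seen, to show regulators and sensors. Irf9, the DNA-binding subunit of the interferon-activated complex, was at 19.4, 14.3 and 19.96 CPM against 4.30, 4.38 and 4.62 CPM, a log2 fold change of 2.02 (SE 0.15). Stat2, a further subunit at 46.5, 42.0 and 43.8 CPM against 46.6, 36.4 and 39.5 CPM, overlapped between groups and was not called (0.11, edgeR adjusted p = 0.342). Without untransfected replicate 1 it was called (0.22, adjusted p = 0.035). Irf7, the factor that amplifies interferon gene transcription, was at 4.5, 3.74 and 4.56 CPM against 0.128, 0.240 and 0.478 CPM (3.95, SE 0.356). Irf1 missed the threshold (0.25, edgeR adjusted p = 0.0544) and passed it under 7 alternative settings, with adjusted p of 0.0289 to 0.0493.

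Sensors of double-stranded RNA that are themselves interferon-stimulated rose together with a kinase and an editing enzyme that act on such RNA. Ddx58, which encodes RIG-I, was at 32.1, 29.4 and 32.4 CPM against 7.63, 6.71 and 5.81 CPM (2.21, SE 0.136). Ifih1, which encodes MDA5, had 47 counts over the RfxCas13d_NTG samples and none over the untransfected ones. Its depth-scaled ratio has a 95% exact counting interval that begins at 11.2. Dhx58, which encodes their regulator LGP2, was at 3.74, 2.93 and 4.01 CPM against 0.898, 0.659 and 1.04 CPM (2.06). All 3 RIG-I-like receptors were thus above the untransfected range in every replicate. Eif2ak2, the kinase PKR that halts translation on double-stranded RNA, was at 94.3, 80.8 and 94.8 CPM against 61.1, 58.4 and 55.5 CPM (0.62). Adar, which deaminates adenosine in such RNA, was at 86.4, 81.9 and 90.4 CPM against 69.8, 69.3 and 65.4 CPM (0.34). Both were expressed without transfection, and both rose by less than 1 on the log2 scale.

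GTPases of the Mx, Irgm and Gbp families, which act on virus particles and pathogen vacuoles, moved in the same direction. Mx1 was at 3.74, 4.49 and 3.47 CPM against 1.80, 1.74 and 1.35 CPM (1.24). Mx2 was at 4.84, 3.12 and 4.56 CPM against 3.21, 2.58 and 1.91 CPM (0.68), with overlapping groups. Its call was lost without RfxCas13d_NTG replicate 1 or 3 (adjusted p = 0.106 and 0.0947) and without untransfected replicate 2 or 3 (0.069 and 0.111). The Irgm1, Irgm2 and Igtp genes are not on the list. Irgm1 was at 35.5, 31.2 and 36.9 CPM against 11.5, 10.9 and 12.98 CPM (1.56, SE 0.106). Irgm2 had a log2 fold change of 2.28 and Igtp of 1.95. Gbp3 had 136 counts over the RfxCas13d_NTG samples and none over the untransfected ones. Ddx60, a helicase that aids RIG-I, had 72 counts against none. The 95% exact counting intervals of their depth-scaled ratios begin at 33.3 for Gbp3 and 17.4 for Ddx60. Gbp3 and Ddx60 thus went from no read in any untransfected sample to reads in every RfxCas13d_NTG sample.

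Transcripts of the interferons themselves were hardly seen. Of 21 interferon genes listed, counts were found for Ifnz alone, with 2 over the RfxCas13d_NTG samples and 1 over the untransfected samples. Ifnb1 had no counts in any of the 6 samples. A count of 0 over a group allows up to 3 counts. RNA was taken at a single time, so an earlier peak of these transcripts was not observed.

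Genes of nucleic acid sensing and signalling outside the interferon-stimulated list held 4 calls. Of 29 listed, 25 were tested, 3 were called higher and 1 lower, and the median log2 fold change was 0.04. The higher calls are 12% of the genes tested, beside 5.6% of all genes. Ddx3x, an RNA helicase that also takes part in antiviral signalling, rose by 0.16 (SE 0.021), and Samhd1, which depletes nucleotide pools, rose by 0.19 (SE 0.037). Tlr3, a receptor for endosomal double-stranded RNA, was at 0.484, 0.499 and 0.651 CPM against 0.257, 0.180 and 0 CPM (1.78, edgeR adjusted p = 0.0484). Its call was lost without any 1 of the RfxCas13d_NTG replicates and without untransfected replicate 2 or 3 (adjusted p of 0.0744 to 0.161). Ifnar2, a chain of the type I interferon receptor, was lower at 15.8, 16.5 and 17.5 CPM against 21.3, 20.6 and 19.4 CPM (-0.30, edgeR adjusted p = 0.0247). That call was lost without RfxCas13d_NTG replicate 1 or 2 or untransfected replicate 1 or 2 (adjusted p of 0.0694 to 0.0982).

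Several genes of antigen presentation by MHC class I rose by less than 1 on the log2 scale. Of 20 tested genes of the 21 listed, 11 were called higher (55%, beside 5.6% of all genes) and none lower, with a median log2 fold change of 0.28 and a range of -0.24 to 0.77. Tapbp, which encodes the peptide-loading chaperone tapasin, was at 62.2, 60.2 and 61.3 CPM against 33.8, 37.3 and 37.0 CPM (0.77, SE 0.069, edgeR adjusted p = 3.72e-09). B2m, the light chain of class I molecules, was at 159, 161 and 159 CPM against 109, 110 and 119 CPM (0.50, SE 0.044, edgeR adjusted p = 2.45e-09). The groups of both genes were clearly separate. Psmb8, a subunit of the immunoproteasome, rose by 0.64 (SE 0.057), and Erap1, which trims peptides in the endoplasmic reticulum, by 0.68 (SE 0.060). With any 1 replicate left out, 10 or 11 were called.

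Targets of NF-kB, the factor of inflammatory gene expression, held 3 calls, all of chemokines. Of 19 tested genes of the 29 listed, these 3 were called higher (15.8%, beside 5.6% of all genes) and none lower, with a median of 0.07. DESeq2 called 1 of the 19 higher. Cxcl10, which is also known as an interferon-induced gene, was at 8.99, 7.36 and 7.54 CPM against 0.641, 0.599 and 0.876 CPM, a log2 fold change of 3.5 (SE 0.244, edgeR adjusted p = 1.49e-11). Ccl5 had 34 counts over the RfxCas13d_NTG samples against 1, a depth-scaled ratio of 31.2 with a 95% exact counting interval of 5.23 to 1270. Cxcl1, a neutrophil attractant, was at 3.39, 3.30 and 3.42 CPM against 1.92, 2.28 and 2.39 CPM (0.62, edgeR adjusted p = 0.0269). The Cxcl1 call was lost without any 1 of the RfxCas13d_NTG replicates and without untransfected replicate 1 or 2 (adjusted p of 0.0539 to 0.113). Cxcl10 and Ccl5 thus account for the rises over 1 on this list.

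Among named genes averaging 50 counts or more whose groups did not overlap, the largest fall was in a gene of the contractile apparatus. Acta2 (Entrez 11475), smooth muscle actin, was at 8.58, 9.29 and 9.82 CPM in the RfxCas13d_NTG replicates against 37.1, 33.3 and 36.2 CPM, and its mean dropped by 73.9%. The log2 fold change was -1.94 (SE 0.116, edgeR adjusted p = 6.33e-13). Myl9, a regulatory light chain of myosin, was at 3.88, 3.55 and 3.80 CPM against 8.60, 8.81 and 9.16 CPM (-1.24, SE 0.149, edgeR adjusted p = 8.57e-07). Both genes had a gap between groups many times the spread within them. Ablim3 and Fblim1, which encode proteins bound to actin filaments and their anchorage, both fell by 0.73 on the log2 scale, and Tead3, a transcription factor of the Hippo pathway, by the same amount. Without RfxCas13d_NTG replicate 1 the calls of Ablim3 (adjusted p = 0.0606) and Tead3 (0.0528) were lost, and that of Tead3 also without untransfected replicate 1 (0.058) or 2 (0.0537).

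The other large falls were spread over unlike functions. Eml2, a microtubule-binding protein, was at 3.88, 4.36 and 3.85 CPM against 8.28, 8.57 and 7.01 CPM (-0.99, edgeR adjusted p = 3.21e-04). H60b, a ligand of the NKG2D receptor of natural killer cells, was at 6.30, 6.80 and 6.46 CPM against 11.7, 12.8 and 11.7 CPM (-0.89, edgeR adjusted p = 2.22e-06). Both were named by the rule that required no overlap between groups. Igfbp2, a binding protein of insulin-like growth factors, fell by 0.85, and Cd248, a cell surface sialomucin, by 0.76. Papln, an extracellular matrix protein, fell by 0.84, a call that was lost without untransfected replicate 1 (adjusted p = 0.057). Tm7sf2, a sterol reductase of the cholesterol pathway, fell by 0.77. The linker histone gene H1f4 fell by 0.79, and since its transcripts largely lack poly(A) tails and resemble other histone genes, its level in a poly(A) library is uncertain.

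**Figure D3:**
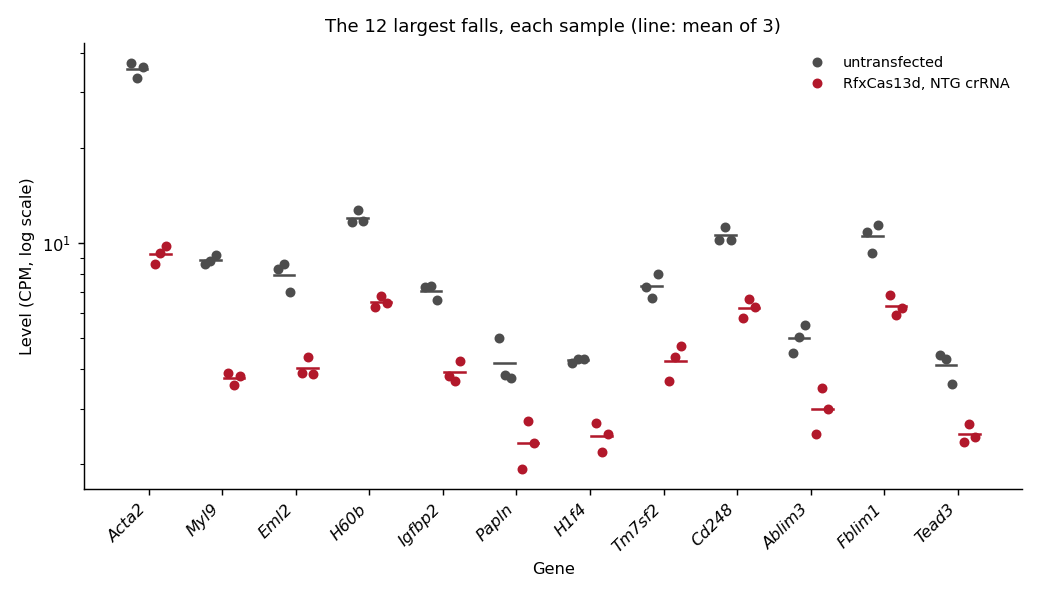
CPM on a log axis in each of the 3 RfxCas13d_NTG and 3 untransfected samples for the 12 largest falls by the naming rule. Acta2 lies lowest relative to its untransfected level, at 8.58 to 9.82 CPM against 33.3 to 37.1 CPM. The rule admitted only genes whose groups do not overlap.

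Genes of the extracellular matrix and of the neuronal cytoskeleton were among those lower by a little. Of 18 tested matrix and adhesion genes of 28 listed, none was called higher and 6 lower (33.3%, beside 5.66% of all genes), with a median of -0.11. Col4a2, a chain of basement membrane collagen, was at 309, 322 and 319 CPM against 408, 399 and 385 CPM (-0.33, SE 0.029, edgeR adjusted p = 2.86e-09). Col4a1, its partner chain, fell by 0.23, Hspg2, the proteoglycan perlecan, by 0.51, and Sparc, a collagen-binding glycoprotein, by 0.21. Of 24 tested neurite and neuronal RNA-binding genes, 1 was called higher and 11 lower (45.8%), with a median of -0.11. Tubb3, the neuronal beta-tubulin, was at 354, 353 and 355 CPM against 413, 423 and 402 CPM (-0.22, SE 0.028, edgeR adjusted p = 2.46e-06). Tubb2b fell by 0.27, Mapt, which encodes tau, by 0.28, and Stmn1, which destabilises microtubules, by 0.14. The replicates of these genes lay close together, so that changes of this size were resolved. With 6 lower calls in place of 11, the neurite count was smallest without RfxCas13d_NTG replicate 2 or 3, and it was 7 without RfxCas13d_NTG replicate 1 or untransfected replicate 2.

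Inhibitors of DNA binding, the classic targets of bone morphogenetic protein (BMP) signalling that restrain differentiation, rose. Id3 was at 17.1, 19.0 and 15.6 CPM against 6.74, 6.89 and 8.20 CPM, a log2 fold change of 1.25 (SE 0.109, edgeR adjusted p = 2.01e-09). Id2 was at 20.1, 20.01 and 18.8 CPM against 7.83, 10.7 and 8.76 CPM (1.10, SE 0.099, edgeR adjusted p = 3.22e-09). Id1 was at 39.3, 39.5 and 37.8 CPM against 24.7, 25.7 and 24.8 CPM (0.63, SE 0.069, edgeR adjusted p = 1.48e-07). None of these genes overlapped between groups. Atoh8, another helix-loop-helix factor, rose by 0.66 (SE 0.086). On the whole list of BMP and TGF-beta targets, 8 of 12 tested genes were called higher (66.7%, beside 5.6% of all genes) and 1 lower, with a median of 0.49.

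Lipid genes moved in different directions. Among targets of the liver X receptor, which senses oxysterols and drives cholesterol export, 3 of 7 tested genes were called higher (42.9%, beside 5.6% of all genes) and none lower, with a median of 0.42. Abca1, the cholesterol exporter, was at 46.0, 44.6 and 45.7 CPM against 26.8, 23.6 and 22.6 CPM (0.90, SE 0.076, edgeR adjusted p = 1.27e-09). Mylip, a ubiquitin ligase, rose by 0.42. Apoe, an apolipoprotein, rose by 0.60, a call that was lost without RfxCas13d_NTG replicate 2 (adjusted p = 0.0974) and without untransfected replicate 2 (0.0863) or 3 (0.095). In cholesterol synthesis, 11 of 27 tested genes were called lower (40.7%, beside 5.66% of all genes) and 4 higher (14.8%), with a median of -0.08. Srebf2, the factor that drives this pathway, was at 331, 355 and 349 CPM against 401, 412 and 397 CPM (-0.23, SE 0.032, edgeR adjusted p = 1.14e-05). Its targets Fdft1 (-0.24), Fdps (-0.23) and Dhcr7 (-0.25), which encode enzymes of the pathway, fell by about as much. The count of lower genes was 6 without untransfected replicate 3, and the 4 higher calls fell to 1 without RfxCas13d_NTG replicate 2, to 2 without untransfected replicate 1 and to 0 without untransfected replicate 2. In fatty acid synthesis 5 of 20 genes were called higher (25%) and 1 lower (5%). Scd2, a desaturase, was at 3063, 3178 and 3195 CPM against 2783, 2763 and 2702 CPM (0.19, SE 0.019, edgeR adjusted p = 1.06e-08). Srebf1 rose by 0.23, Fasn by 0.19 and Acaca by 0.18.

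Many cytosolic ribosomal protein genes were lower by a small amount. Of 80 tested, 45 were called lower (56.2%, beside 5.66% of all genes) and none higher, with a median of -0.09 and a range of -0.23 to 0.06. The groups did not overlap for 63 of the 80, beside 28.5% of all genes. Rpl3 was at 1142, 1117 and 1134 CPM against 1277, 1282 and 1267 CPM (-0.17, SE 0.018, edgeR adjusted p = 7.56e-08). Rpl10a fell by 0.23, Rpl12 by 0.17 and Rpl10 by 0.14. Many ribosomal protein genes have processed pseudogenes, so that reads can be split. The count of lower genes ranged from 32 to 50 over the alternative settings and was 29 without untransfected replicate 3. A coding length was known for 87.2% of tested genes. Their median log2 fold change was -0.0147 for coding sequences of up to 882 bases and -0.000777 for those of 885 to 1416. It was 0.00629 for those of 1419 to 2253 bases and -0.00434 for longer ones. Subunits of oxidative phosphorylation encoded in the nucleus showed 10 of 76 called lower (13.2%) and 1 higher, with a median of -0.05. Cox8a fell by 0.21, Atp5d by 0.19, Ndufv3 by 0.23 and Cox7a2l by 0.13. The call of Ndufv3 was lost without RfxCas13d_NTG replicate 1 (adjusted p = 0.0574), that of Cox7a2l without RfxCas13d_NTG replicate 3 (0.107) and with a correction for coding length (0.0535). Lower calls on that list were 5 with this correction, 4 without RfxCas13d_NTG replicate 1 or 3 and 6 without untransfected replicate 2. Subunits encoded by mitochondrial DNA were not analysed here.

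**Figure D4:**
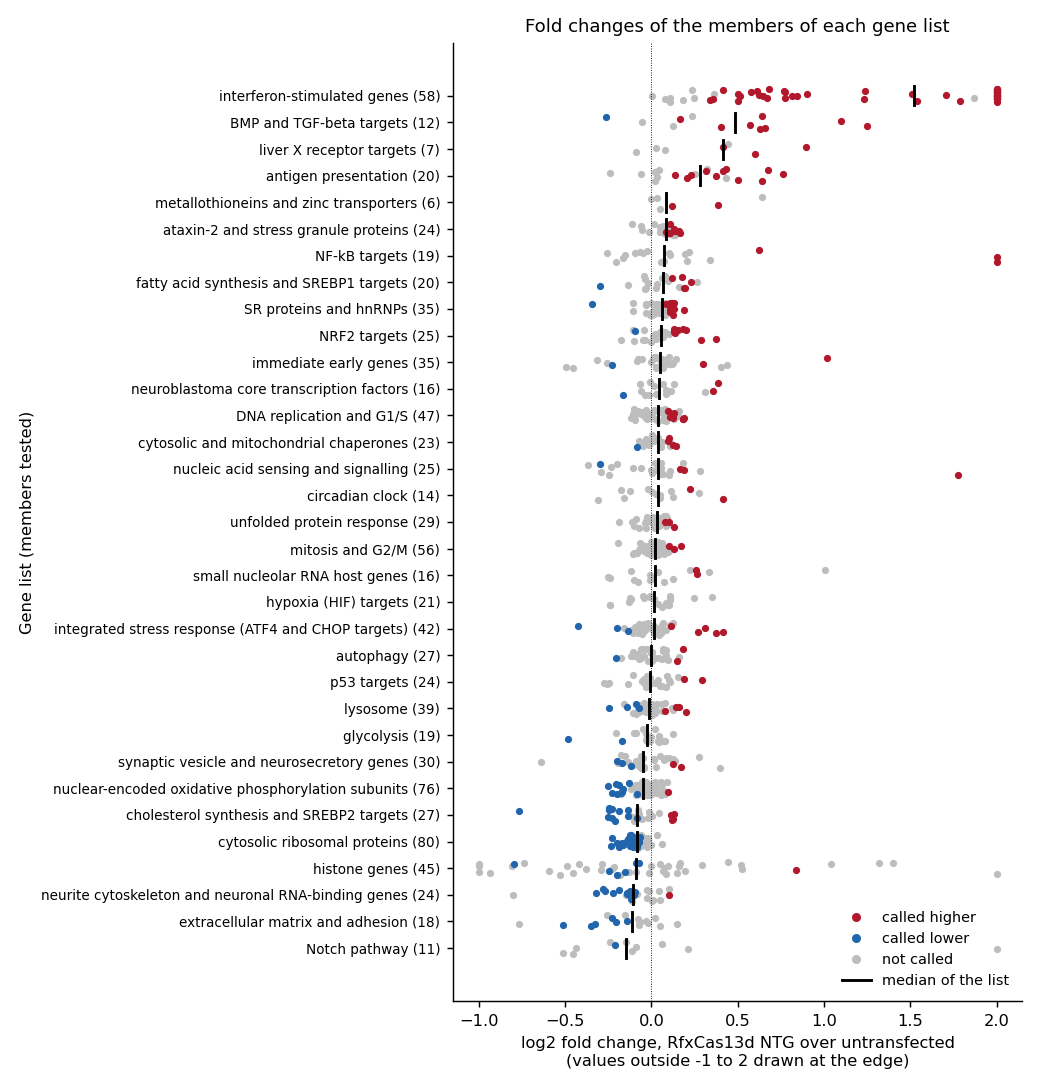
Log2 fold change of each tested member of the lists with at least 6 tested genes (x axis, drawn from -1 to 2, with values beyond placed at the edge), with a black mark at the median of each list. Interferon-stimulated genes extend furthest to the right with a median of 1.52, while the ribosomal protein genes sit in a narrow band around -0.09.

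Some RNA-binding protein genes were slightly higher. Of 35 tested SR proteins and hnRNPs, which guide splicing, 12 were called higher (34.3%, beside 5.6% of all genes) and 1 lower, with a median of 0.06. Hnrnpdl rose by 0.19, Srsf6 by 0.13 and Srsf1 by 0.12. Cirbp, the cold-inducible RNA-binding protein, fell from 35.7, 35.3 and 34.6 CPM to 26.6, 29.1 and 27.5 CPM (-0.34, SE 0.055, edgeR adjusted p = 7.25e-05). Of 24 genes for ataxin-2 and other proteins of stress granules, 8 were called higher (33.3%, beside the same 5.6%) and none lower, with a median of 0.08. They include Taf15 (0.14), Ythdf3 (0.16), Ewsr1 (0.11) and Ddx3x, all RNA-binding proteins. This count was 5 without RfxCas13d_NTG replicate 2.

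Called changes in stress pathways were below 0.5 on the log2 scale. Among all genes tested, 5.6% were called higher and 5.66% lower. Among targets of NRF2, the factor of the oxidative stress response, 8 of 25 tested genes were called higher (32%) and 1 lower (4%), with a median of 0.05. Sqstm1, the autophagy receptor p62, was at 414, 396 and 400 CPM against 362, 354 and 351 CPM (0.18, SE 0.029, edgeR adjusted p = 6.95e-05). Hmox1, heme oxygenase, rose by 0.29, Gclc, which makes glutathione precursors, by 0.20, and Slc7a11, the cystine transporter, by 0.37. In the integrated stress response 5 of 42 tested genes were called higher (11.9%) and 3 lower (7.14%), with a median of 0.01. The directions were mixed there: Ppp1r15a, a phosphatase subunit that restores translation, rose by 0.27, while Asns, asparagine synthetase, fell by 0.14 and Pycr1, of proline synthesis, by 0.43. In the unfolded protein response 3 of 29 tested genes were called higher (10.3%) and none lower, namely Hyou1 (0.08), Dnajc3 (0.13) and Dnajb11 (0.10), all of the endoplasmic reticulum. Each of these 3 calls was lost without untransfected replicate 1, with adjusted p of 0.0558, 0.0764 and 0.177 in that order. Hyou1 was also lost without RfxCas13d_NTG replicate 1 (0.0678), Dnajc3 without RfxCas13d_NTG replicate 1 (0.118) or 3 (0.0558) or untransfected replicate 2 (0.148), and Dnajb11 without RfxCas13d_NTG replicate 2 (0.126) or 3 (0.0675). Among chaperones 4 of 23 were called higher (17.4%) and 1 lower (4.35%), with Hspa9 at 0.10, Hspa4 at 0.13 and Bag3 at 0.14. Hsp90ab1, the constitutive HSP90, fell by 0.08, and was not called without RfxCas13d_NTG replicate 2 (0.0662) or untransfected replicate 3 (0.0788). Of 24 p53 targets 2 were called higher (8.33%), Aen, a nuclease of apoptosis (0.29), and Mdm2, the ligase that degrades p53 (0.19).

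Called changes in proliferation genes were small. In DNA replication and the G1/S transition 8 of 47 genes were called higher (17%, beside 5.6% of all genes) and none lower, with a median of 0.04, and the count was 3 without RfxCas13d_NTG replicate 1 or untransfected replicate 1. Ccnd1, cyclin D1, rose by 0.13. Mcm10 (0.18) was not called without untransfected replicate 1 (adjusted p = 0.0669), nor Mcm7 (0.11) without RfxCas13d_NTG replicate 1 (0.0813). In mitosis 3 of 56 genes were called higher (5.36%, beside 5.6% of all genes). These were Ccnb1 (0.10), Nek2 (0.17) and Nuf2 (0.13), with a cyclin, a centrosome kinase and a kinetochore protein as products. Without untransfected replicate 1, Ccnb1 (0.0532) and Nek2 (0.107) were not called, nor were Nek2 (0.0911) and Nuf2 (0.0651) without RfxCas13d_NTG replicate 1, nor Nuf2 without untransfected replicate 3 (0.056).

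Energy metabolism and degradation pathways held from 0 to 8 calls each, where 5.6% of all genes were called higher and 5.66% lower. In glycolysis edgeR called none of 19 genes higher and 2 lower (10.5%), Pfkm (-0.17) and Aldoc (-0.48), both glycolytic enzymes. DESeq2 and limma-trend each called 1 glycolysis gene higher, as did edgeR with a replicate block, and edgeR called 2 with only the 6 samples compared or with no filter on low counts. At an unadjusted p under 0.05, 1 was higher and 4 were lower. Aldoc was not called without RfxCas13d_NTG replicate 1 (adjusted p = 0.0537) or untransfected replicate 1 (0.122). Among 21 tested hypoxia targets edgeR made no call in either direction, nor did DESeq2 or limma-trend, and 2 were higher and 2 lower at an unadjusted p under 0.05. Under other settings of edgeR up to 2 were called in each direction: 2 higher and 1 lower with a replicate block, 1 and 2 with the block and only the 6 samples compared, and 2 higher without untransfected replicate 1. In the lysosome list 4 of 39 genes were called higher (10.3%) and 4 lower (10.3%), and the lower count was 1 or 2 with any 1 replicate left out. Ctsb, a cathepsin, rose by 0.20, Cd63, a tetraspanin, by 0.16 and Lamp2, a membrane protein, by 0.14, while Naglu, a glycosidase, fell by 0.25. Lamp2 was not called without RfxCas13d_NTG replicate 1 (0.0716), nor Naglu without untransfected replicate 2 (0.0594). In autophagy 2 of 27 genes were called higher (7.41%), Sqstm1 and Rb1cc1 (0.15), and Ulk1 was called lower (-0.20, 3.7% of the list), the last 2 being parts of the kinase complex that starts autophagy. Both of these calls were lost when 1 of 4 libraries was left out: for Rb1cc1, RfxCas13d_NTG replicate 1 or 3 or untransfected replicate 2 or 3 (0.0727 to 0.153), and for Ulk1, RfxCas13d_NTG replicate 1 or 2 or untransfected replicate 1 or 3 (0.0521 to 0.136).

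Called changes in genes of neuroblast identity and of secretion were small. Among 16 tested core transcription factors of neuroblastoma, Lmo4 was at 45.9, 50.6 and 48.2 CPM against 39.0, 37.8 and 35.9 CPM (0.36, SE 0.049, edgeR adjusted p = 7.83e-06). Tbx2 rose by 0.39 and Sox11, which promotes neuronal maturation, fell by 0.16. Those were the 3 calls on that list, 12.5% higher and 6.25% lower, beside 5.6% and 5.66% of all genes. Of 30 tested synaptic and neurosecretory genes 2 were called higher (6.67%) and 3 lower (10%). The prohormone convertase partner Cpe fell by 0.20, Vgf by 0.17 and Scg3 by 0.12, and Scg2 rose by 0.17, all of the dense-core vesicle. Scg3 was not called without RfxCas13d_NTG replicate 3 (adjusted p = 0.0627) or untransfected replicate 3 (0.055), nor Scg2, whose groups overlapped, without RfxCas13d_NTG replicate 1 (0.0665) or untransfected replicate 2 (0.0677) or 3 (0.0731).

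The remaining lists held from 0 to 7 calls each, to be read beside the 5.6% of all genes called higher and 5.66% called lower. Of 35 immediate early genes 2 were called higher (5.71%, near that share), Junb (0.30) and Fosb, and 1 lower (2.86%), Jund (-0.23), all subunits of the AP-1 factor. Fosb was at 1.52, 1.62 and 1.74 CPM against 0.834, 0.779 and 0.796 CPM (1.02, edgeR adjusted p = 0.0206). The Fosb call was lost without RfxCas13d_NTG replicate 3 or any 1 untransfected replicate (0.0514 to 0.0677), and that of Junb without replicate 2 of either group (0.0585 and 0.0636). In the Notch pathway 1 of 11 tested genes was called lower (9.09%), Lfng (-0.21), which lost its call without RfxCas13d_NTG replicate 1 or 3 or any 1 untransfected replicate (0.0659 to 0.156). None of 5 Wnt targets was called by edgeR, DESeq2 or limma-trend, with 2 higher and 1 lower at an unadjusted p under 0.05. edgeR called 1 of them higher without untransfected replicate 1, and also with a replicate block and only the 6 samples compared. Of 14 clock genes 2 were called higher (14.3%), Clock (0.22) and the repressor Bhlhe41 (0.41), the latter lost without RfxCas13d_NTG replicate 2 or untransfected replicate 1 or 3 (0.0553 to 0.0699). Of 6 metallothionein and zinc transporter genes 2 were called higher (33.3%), the exporter Slc30a1 (0.38) and the importer Slc39a6 (0.12), the latter lost without RfxCas13d_NTG replicate 1 (0.1) or untransfected replicate 3 (0.0586). Of 16 host genes of small nucleolar RNAs 2 were called higher (12.5%), Snhg17 (0.26) and Snhg15 (0.27). Snhg17 was lost without untransfected replicate 2 (0.0529), and Snhg15 without RfxCas13d_NTG replicate 2 or 3 or untransfected replicate 1 or 2 (0.077 to 0.109). Of 45 tested histone genes 1 was called higher (2.22%), H2bc4 (0.84), and 6 lower (13.3%), among them the linker histones H1f0 (-0.15) and H1f10 (-0.20). The 6 lower calls were 3 without RfxCas13d_NTG replicate 1 or 3 or untransfected replicate 2 or 3.

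Called members that complete these short counts were named after their values were seen. The higher cholesterol genes included Insig1 (0.12) and Tmem97 (0.13), both lost without untransfected replicate 1 (adjusted p = 0.0917 and 0.0707) or 2 (0.0626 and 0.0533), and Insig1 also without RfxCas13d_NTG replicate 1 (0.0562) or 2 (0.0951). The fifth higher fatty acid gene was Mid1ip1 (0.12), lost without RfxCas13d_NTG replicate 1 or 2 or any 1 untransfected replicate (0.0602 to 0.21), and the lower one was Agpat2 (-0.30), lost without RfxCas13d_NTG replicate 3 (0.0661). In the integrated stress response Atf3 (0.41), Nupr1 (0.31) and Tars (0.11) were also higher and Slc7a3 (-0.20) lower. Of these, Atf3 was lost without untransfected replicate 3 (0.0537), Nupr1 without RfxCas13d_NTG or untransfected replicate 1 or 3 (0.0665 to 0.177) and Slc7a3 without RfxCas13d_NTG replicate 2 (0.11) or 3 (0.136) or untransfected replicate 1 (0.247). In the lysosome Lamp1 (0.08) was also higher and Glb1 (-0.14), Psap (-0.07) and Asah1 (-0.09) lower. Lamp1 was lost without RfxCas13d_NTG replicate 2 (0.0523) or untransfected replicate 1 (0.0581), Psap without any 1 of the 6 libraries (0.0557 to 0.215), Glb1 without any 1 but untransfected replicate 2 (0.0662 to 0.181) and Asah1 without any 1 but RfxCas13d_NTG replicate 1 (0.105 to 0.217). The lower BMP and TGF-beta target was Tgfbi (-0.26), lost without replicate 2 or 3 of either group (0.0767 to 0.0994), and the lower NRF2 target was Tkt (-0.10), which kept its call. The higher neurite gene was Ina (0.10), lost without any 1 library but untransfected replicate 1 (0.0513 to 0.104), and the higher oxidative phosphorylation gene was Ndufs1 (0.10), lost without RfxCas13d_NTG replicate 1 (0.0798) or 2 (0.0633) or untransfected replicate 1 (0.0743). Chga (0.13) was the other higher secretory gene, lost without RfxCas13d_NTG replicate 1 (0.0747) or untransfected replicate 3 (0.0541).

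The levels of a few of these genes were then set beside those of the other groups of the series, which share the untransfected samples as their reference. Ifi27 was 159 ± 11.7 CPM (SD, n = 3) in RfxCas13d_NTG, 86.3 ± 11.8 in HiFi-RfxCas13d_NTG, 99.6 ± 14.3 in DiCas7-11_NTG, 24.6 ± 1.57 in untransfected cells and 36.2 ± 9.02 in the group treated with an ataxin-2 ASO (antisense oligonucleotide). Lgals9 was 58.3 ± 4.31 CPM in RfxCas13d_NTG, 33.1 ± 3.66 in HiFi-RfxCas13d_NTG, 35.6 ± 2.48 in DiCas7-11_NTG, 16.5 ± 0.465 in untransfected cells and 20.1 ± 1.87 with the ASO. For both genes RfxCas13d_NTG had the highest level of these 5 groups, and the other 2 control arms, whose difference is within their spread, came next. Acta2 had a different order: 9.23 ± 0.621 CPM in RfxCas13d_NTG, 7.45 ± 0.642 in HiFi-RfxCas13d_NTG, 7.19 ± 1.18 in DiCas7-11_NTG, 35.5 ± 1.99 in untransfected cells and 5.57 ± 0.730 with the ASO. Id3 was 17.2 ± 1.73 CPM in RfxCas13d_NTG, 18.3 ± 0.674 in HiFi-RfxCas13d_NTG, 16.5 ± 2.80 in DiCas7-11_NTG, 7.28 ± 0.806 in untransfected cells and 19.9 ± 0.611 with the ASO. Acta2 and Id3 thus separated untransfected cells from every other group shown, the ASO group included. RfxCas13d with the mATXN2 crRNA was near its own control arm in some genes, at 9.65 CPM for Acta2, 54.0 CPM for Lgals9 and 152.5 CPM for Ifi27. In others its mean was lower than that of its control arm. Ifit1 was 15.5 against 21.1 CPM, Rsad2 10.1 against 15.4 CPM and Isg15 11.2 against 14.6 CPM. Differences between these 2 arms were not tested here.

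**Figure D5:**
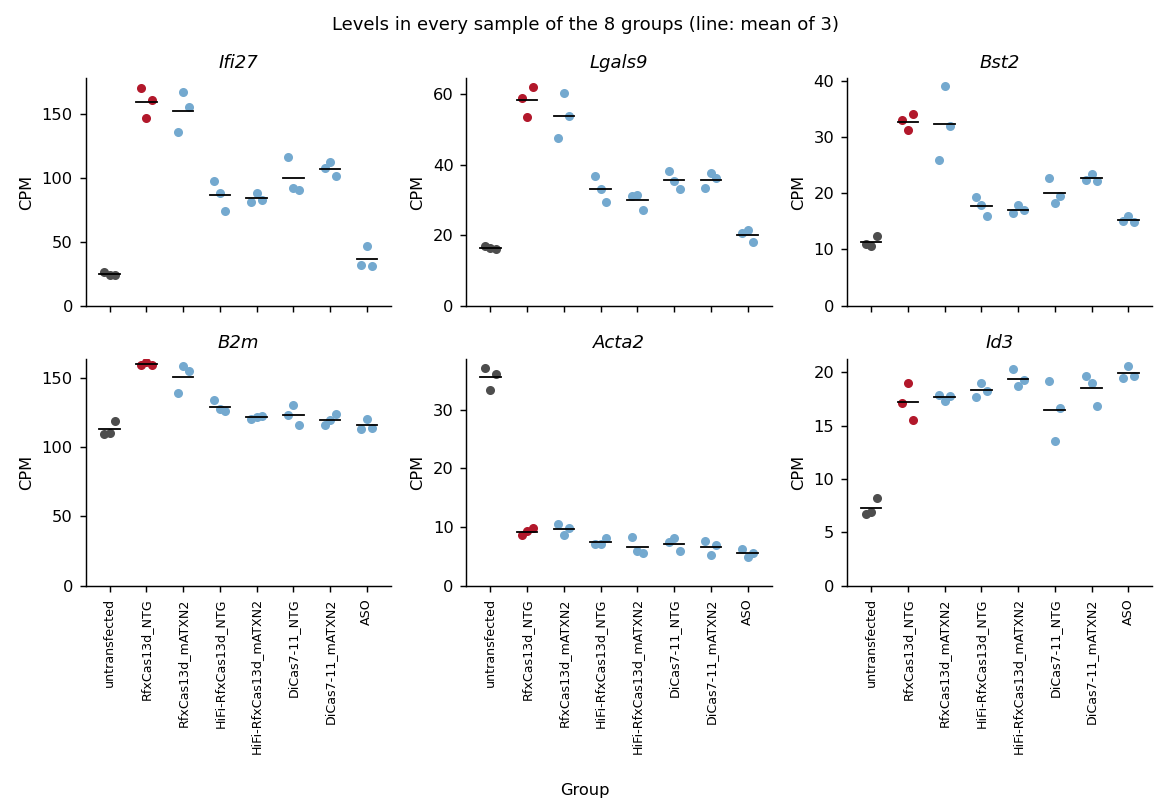
CPM of Ifi27, Lgals9, Bst2, B2m, Acta2 and Id3 in the 3 samples of each of the 8 groups, with a line at the mean. Ifi27, Lgals9, Bst2 and B2m are highest in the RfxCas13d groups (159 CPM for Ifi27 in RfxCas13d_NTG against 24.6 in untransfected cells), and Acta2 is high in untransfected cells alone (35.5 CPM).

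RfxCas13d_NTG was tested directly against HiFi-RfxCas13d_NTG, a contrast that leaves out the untransfected samples. edgeR called 70 genes higher in RfxCas13d_NTG (0.504% of genes tested) and 16 lower (0.115%). Of the 58 tested interferon-stimulated genes, 23 were among the higher and none among the lower, with a median log2 difference of 0.49. Usp18 differed by 1.92 and Oas1a by 1.77 on the log2 scale (edgeR adjusted p = 2.89e-05 and 8.79e-05). Bst2 was 32.8 ± 1.44 CPM (SD, n = 3) against 17.8 ± 1.78 (0.89, edgeR adjusted p = 6.9e-06), and Lgals9 differed by 0.82 (adjusted p = 1.13e-06). Both were higher in every RfxCas13d_NTG sample. Ifit1 was not called, with a difference of 0.26 (edgeR adjusted p = 0.318), nor was Cxcl10 (0.48, adjusted p = 0.231). Of 20 antigen presentation genes 6 were called higher in RfxCas13d_NTG, with B2m at 0.31 and Tapbp at 0.44. Acta2, Myl9 and Id3 were not called between these arms, with differences of 0.31 (SE 0.14), -0.05 (SE 0.16) and -0.09 (SE 0.09) and edgeR adjusted p of 0.431, 0.957 and 0.81. Outside the interferon genes, 5 of 19 glycolysis genes and 3 of 21 hypoxia targets were called higher than in HiFi-RfxCas13d_NTG. These counts were 17 and 11 with no filter on low counts. Both were 0 without HiFi-RfxCas13d_NTG replicate 2 and without RfxCas13d_NTG replicate 3. The interferon-stimulated count was 16 to 24 with 1 replicate left out. The calls over all genes were 34 and 40 without HiFi-RfxCas13d_NTG replicates 2 and 3, and 46, 54 and 41 without RfxCas13d_NTG replicates 1, 2 and 3.

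The direct test against DiCas7-11_NTG called 318 genes higher in RfxCas13d_NTG (2.29% of genes tested) and 153 lower (1.1%). Replicates of DiCas7-11_NTG were less alike, with a chi-square per gene of 3.34 to 5.6 times counting noise against 1.9 to 2.24 in HiFi-RfxCas13d_NTG. Of the interferon-stimulated genes 24 were called higher and none lower, with a median log2 difference of 0.36. Oas1a differed by 1.42 and Usp18 by 1.35 (edgeR adjusted p = 6.2e-04 and 8.5e-04). Ifi27 differed by 0.68 (edgeR adjusted p = 1.68e-04) and Bst2, at 20.1 ± 2.29 CPM in DiCas7-11_NTG, by 0.71 (adjusted p = 7.24e-05). These genes were thus higher in RfxCas13d_NTG than in either of the other control arms. The count was 13 with DESeq2 and 15 without DiCas7-11_NTG replicate 2 or 3. Of the antigen presentation genes 8 were called higher, with B2m at 0.37 and Tapbp at 0.46, and 5 without RfxCas13d_NTG replicate 1 or DiCas7-11_NTG replicate 3. Outside the interferon genes, 12 of 19 glycolysis genes and 9 of 21 hypoxia targets were called higher than in DiCas7-11_NTG. Without DiCas7-11_NTG replicate 2 these counts were 4 and 3. With only the 6 samples compared, 5 glycolysis genes were called higher. The glycolysis count was 18 without DiCas7-11_NTG replicate 1, 7 without its replicate 3, and 7 and 6 without RfxCas13d_NTG replicates 2 and 3. The calls over all genes were 896, 212 and 229 without DiCas7-11_NTG replicates 1, 2 and 3, and 264, 251 and 245 without RfxCas13d_NTG replicates 1, 2 and 3.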

How the data were processed

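RNA-seq libraries (stranded mRNA kit, 101 cycles from one end) of 24 samples of Neuro2A cells were quantified by the authors with Salmon (version 1.5.2) and summed to genes with tximport. They deposited expected counts for each gene, which the lengthScaledTPM option had scaled and which keep the library size. The authors name GRCm39 as the build, and their column marks 12874 kept genes.

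After rounding and TMM normalization, the quasi-likelihood test of edgeR (version 4.0.16, R 4.3.3) was fitted to 8 group coefficients. The 13901 genes that reached 0.5 CPM in 3 or more samples entered it. Adjustment was by Benjamini-Hochberg, separately per comparison. The study's limma-trend fit (limma 3.58.1, prior count 3) and DESeq2 (version 1.42.0) were alternatives. The methods of the study name the replicates as biologically independent, and samples were grouped by their labels.

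The members and gene lists were chosen with earlier results of these data known. Named genes are Atxn2, the 12 largest rises and 12 largest falls among called genes with a mean of at least 50 counts, no overlap and a gene name, up to 4 called members per list, and up to 3 genes per direct comparison. Genes without a call or of no list were left unnamed in places, some genes are not reported here, and others are stated as named after their values were seen. Lists are described by counts and medians, with no set test. Promoter windows are RefSeq's (GRCm38.p6), another build than the authors', matched by Entrez gene number. Coding lengths come from GENCODE M21.

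The test was checked on simulated data for this comparison (13691 genes): of simulated log2 changes of 1, edgeR found 100 of 100, of those of 0.3 it found 73 of 100, and it called 9 of 13491 unchanged genes. Counting intervals, and the 3 counts that a 0 allows, cover counting error only.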

Additional observations from a re-analysis of the deposited data

Results flagged for a closer look

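The values here are log2 differences of RfxCas13d_NTG from another control arm that edgeR called in the direct test of the difference (adjusted p under 0.05), which is what drew attention to them. In all 67 differences of named genes were called. The 2 sets share the RfxCas13d_NTG samples and are not independent. Groups of 3 were not examined for outlying samples.

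Against HiFi-RfxCas13d_NTG, the genes of the interferon-stimulated list that differed were Oasl2 (1.02), Oas1a (1.77), Rsad2 (0.618), Isg15 (0.477), Usp18 (1.92), Xaf1 (1.3), Ifi27 (0.884), Bst2 (0.886), Irf7 (1.76), Irf9 (0.929), Ddx58 (0.923), Eif2ak2 (0.332) and Oas2 (3.4). The antigen presentation genes were B2m (0.308), Psmb8 (0.347) and Tapbp (0.438). The others, on other lists or on none, were Ifitm3 (1.04), Apol9a (1.03), Hyou1 (-0.0907), Col4a2 (0.122), Sparc (0.185), H1f0 (0.151), Lgals9 (0.818), Irgm1 (0.617), Irgm2 (1.07), Igtp (1.29) and Ina (-0.129).

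Against DiCas7-11_NTG, the genes of the interferon-stimulated list that differed were Ifit1 (0.431), Oasl2 (0.911), Oas1a (1.42), Rsad2 (0.869), Isg15 (0.548), Usp18 (1.35), Oasl1 (0.566), Ifi27 (0.684), Bst2 (0.712), Irf7 (1.38), Irf9 (0.599), Ddx58 (0.617), Mx1 (0.732) and Oas2 (2.02). The antigen presentation genes were B2m (0.374), Psmb8 (0.337) and Tapbp (0.455). The others, on other lists or on none, were Ifitm3 (0.73), Apol9a (0.847), Fblim1 (0.607), Asns (0.0941), Slc7a11 (0.282), Hyou1 (-0.085), Sqstm1 (0.232), Hmox1 (0.259), Aldoc (0.498), Ctsb (0.208), Cd63 (0.129), Lamp2 (0.204), Vgf (0.18), Col4a2 (0.124), Sparc (0.346), H1f0 (0.132), H1f10 (0.184), Lgals9 (0.716), Irgm1 (0.405), Irgm2 (0.858), Nupr1 (0.356), Lamp1 (0.0761) and Psap (0.0948).

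Of the 67 differences, 38 were called under every setting run. Against HiFi-RfxCas13d_NTG, calls lost when a library was left out had their highest adjusted p without HiFi-RfxCas13d_NTG replicate 2 for Col4a2 (0.326), Hyou1 (0.27) and Oas2 (0.0621), without its replicate 3 for Xaf1 (0.181) and Sparc (0.118), without RfxCas13d_NTG replicate 2 for Ina (0.126), and without RfxCas13d_NTG replicate 1 for Rsad2 (0.207), Isg15 (0.196) and Igtp (0.0518). Against DiCas7-11_NTG, they had it without DiCas7-11_NTG replicate 2 for Aldoc (0.338), H1f10 (0.178), Hyou1 (0.141), Fblim1 (0.139), Psap (0.166), Vgf (0.123), Col4a2 (0.118) and Irgm1 (0.0892), and without its replicate 3 for Oasl1 (0.181), Nupr1 (0.155) and Ifitm3 (0.118). They had it without RfxCas13d_NTG replicate 1 for Ifit1 (0.138) and Slc7a11 (0.0541), without replicate 2 for Mx1 (0.163), Lamp1 (0.152) and Cd63 (0.106), and without replicate 3 for Oas2 (0.191) and Irf9 (0.0573). Asns (0.18) and H1f0 (0.0687) lost their calls against DiCas7-11_NTG when only the 6 samples compared were fitted.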

How the results depend on the processing

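Calls against untransfected cells numbered 678 to 958 higher and 566 to 903 lower over the other normalizations, filters, tests, sets of samples and corrections, beside 778 and 787. Leaving out 1 replicate gave 552 to 608 higher and 480 to 562 lower, with 480 without RfxCas13d_NTG replicate 1, 523 without its replicate 3 and 504 without untransfected replicate 2; these fits hold fewer samples. Higher genes were 49.7% of calls and up to 54.5% with library totals, DESeq2 or the coding length correction. The log2 fold change of Atxn2 ranged from -0.0272 to 0.00315 with 1 replicate left out, and turned positive without RfxCas13d_NTG replicate 1 (0.00315) and without untransfected replicate 2 (7.36e-05), both near 0. Of the other 158 named genes, 48 lost their call under at least 1 setting and none changed direction. With DESeq2, lost calls included those of Cxcl1, Dnajb11, Ulk1, Lfng, Tgfbi, Mid1ip1, Glb1 and Asah1 (adjusted p of 0.0502 to 0.121).

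Against HiFi-RfxCas13d_NTG, 86 genes were called, 254 with no filter on low counts, 141 with only the 6 samples compared and 34 to 84 with 1 replicate left out (34 without HiFi-RfxCas13d_NTG replicate 2). Against DiCas7-11_NTG, 471 were called, 126 with only the 6 samples compared and 212 to 896 with 1 replicate left out. The cause was not tested.

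The replicate numbers share only a number: deviations of same-numbered samples had correlations of -0.0187, -0.00444 and -0.00868 across genes. With a replicate block, 918 genes were called higher and 903 lower, and 161 differed from HiFi-RfxCas13d_NTG and 675 from DiCas7-11_NTG. With the block and only the 6 samples compared, 832 were higher and 788 lower. Leaving out the ASO samples, an alternative chosen after seeing the data, gave 770 and 720. Depth limits genes with few counts, such as Tlr3 and Ccl5.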

Other observations

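Gm10096, an unnamed locus, had 0 counts in all 3 RfxCas13d_NTG samples and 71, 28 and 41 counts in the untransfected replicates. Its counts were also 0 in 1 replicate of RfxCas13d_mATXN2, HiFi-RfxCas13d_NTG, HiFi-RfxCas13d_mATXN2 and DiCas7-11_NTG and in 2 replicates of DiCas7-11_mATXN2, while the other samples of these groups held 29 to 68 counts. The ASO samples held 56, 41 and 37 counts. The locus is called lower in the comparison with untransfected cells, and its values lie either at 0 or at 28 counts and above, with none between.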
